A study of Mus musculus with 12 samples.

Results

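Raw counts of 10 genes were followed across 4 groups of mouse bone marrow libraries. The genes were Lgr5, Tnfrsf19, Gfra1, Tmem132e, Cpm, Col5a3, Akap12, Fam129c, Cecr2 and Sertad4, 10 of the 55291 gene symbols in the deposited table. They were chosen because their counts were 0 or very low in the homozygous SCFA libraries, and because none belongs to the usual lists of B lineage genes. Low values in that group are therefore how the genes were picked and are given as a description, without a test.

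RNA-seq was made from the non-adherent progenitor cells of bone marrow of mice about 8 weeks old, after about 24 hours of culture in alpha-MEM. Homozygous SCFA mice carried STAT3Cstopfl/fl and CD4Cre and drank water with short-chain fatty acids (SCFAs), the products of fibre fermentation by gut bacteria. Control SCFA mice, labelled control with no further genotype, drank the same supplement. Homozygous untreated mice had the STAT3C allele with CD4Cre and no SCFA (1 of these 3 labels also names R26, the Rosa26 locus), and control untreated mice, also labelled only control, had no SCFA. STAT3C is a constitutively active form of the transcription factor STAT3. The allele lies behind a stop cassette that Cre removes, and the CD4 promoter directs Cre mainly to T cells, so the recombined cells need not be those in which the 10 genes are read. Each group had 3 libraries, named here by group and replicate number. Whether these came from separate mice is not stated, and p-values measure only the spread between these libraries.

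Totals were 16954355 to 20748995 counts per library. The labels date all untreated libraries to day 1 and all SCFA libraries to day 30 of month 3, and wherever SCFA mice are set against untreated mice, the supplement and the date cannot be told apart. The 3 control untreated libraries mostly differed more among themselves than those of the other groups, with a chi-square per degree of freedom of 31.7 to 96.2 between pairs against 12.6 to 35.0 in the others. Results that rest on 1 of them are given with the value without it. In bulk RNA, fewer cells of a type and less RNA per cell cannot be told apart.

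The proteins encoded by these genes have little in common by textbook function. Lgr5 is a receptor for R-spondins that strengthens Wnt signalling and marks stem cells of the gut and hair follicle. Tnfrsf19 is an orphan receptor of the TNF receptor family. Gfra1 is the co-receptor through which the growth factor GDNF signals with the tyrosine kinase Ret. Tmem132e is a single-pass membrane protein linked to hearing loss in human, Cpm a membrane-bound carboxypeptidase that removes C-terminal arginine and lysine, and Col5a3 a chain of type V collagen. Inside the cell, Akap12 is a scaffold that tethers protein kinases A and C, Cecr2 a bromodomain protein of ISWI chromatin remodelling complexes, and Sertad4 a member of the SERTA domain family. Fam129c, called Niban3 in RefSeq, is known in human as a B cell protein, so that its place outside the B lineage lists is one of list membership only.

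RefSeq promoter windows of GRCm38.p6, from 250 bases before to 50 after a start, were matched for 7 of the 10 genes, in 9 windows. They were searched on both strands for TCCC and GGGA separated by any 2 bases (an EBF motif), CAGGTG (an E protein motif), TTCNNNGAA (a STAT motif) and GAGGAAG (a PU.1 motif). CAGGTG was found in 2 of the 9 windows, against 20.2% of all 32851 windows. TTCNNNGAA was found in 1, against 8.30% of all windows. The EBF motif and GAGGAAG were found in 0 of the 9, against 0.904% and 13.6% of all windows. The only windows with any match were 1 of Tnfrsf19 (chr14:61046806-61047105, minus strand) and Fam129c (chr8:71597458-71597757, plus strand). They are shown 5′ to 3′ for that reason, with the matched letters in capitals. The last run of capitals in the Tnfrsf19 window is CAGGTG followed directly by a TTCNNNGAA match, with no overlap.
Tnfrsf19: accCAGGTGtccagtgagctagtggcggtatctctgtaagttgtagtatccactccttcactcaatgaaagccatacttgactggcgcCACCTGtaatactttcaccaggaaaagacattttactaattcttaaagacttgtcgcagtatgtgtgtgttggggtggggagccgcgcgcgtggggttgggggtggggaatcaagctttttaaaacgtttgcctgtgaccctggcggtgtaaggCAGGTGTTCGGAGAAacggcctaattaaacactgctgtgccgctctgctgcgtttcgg
Fam129c: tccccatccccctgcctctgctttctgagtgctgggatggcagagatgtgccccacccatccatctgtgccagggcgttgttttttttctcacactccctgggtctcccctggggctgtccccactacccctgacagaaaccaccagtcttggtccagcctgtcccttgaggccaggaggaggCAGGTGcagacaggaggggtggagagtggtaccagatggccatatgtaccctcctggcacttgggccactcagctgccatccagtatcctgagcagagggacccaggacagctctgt

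Of the 10 genes, 6 had 0 counts in each of the 3 homozygous SCFA libraries and 4 kept a low count. Among the 15674 genes that passed the filter on low counts, 112 (0.715%) had 0 counts there. All 10 members passed that filter, which the 6 genes with 0 counts could do only through the other groups. The name "lost" therefore fits the counts of 6 genes, while Cpm, Akap12, Fam129c and Cecr2 were still detected in every homozygous SCFA library.

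Among the receptors, Lgr5 (chromosome 10, 115450311 to 115587780 of mm10, protein-coding as all 10 are) had 0, 0 and 0 counts in homozygous SCFA and 330, 318 and 305 in control SCFA libraries. It had 64, 99 and 79 counts in homozygous untreated and 217, 117 and 333 in control untreated libraries. The groups did not overlap, except that control SCFA lay within the range of control untreated. Tnfrsf19 (chromosome 14, 60963875 to 61046490) had 0, 0 and 0 counts in homozygous SCFA and 341, 324 and 308 in control SCFA libraries. It had 65, 74 and 97 counts in homozygous untreated and 250, 125 and 289 in control untreated libraries. Control untreated 2 was the lowest library of its group for both. Gfra1 (chromosome 19, 58235604 to 58455909) had 0, 0 and 0 counts in homozygous SCFA and 461, 490 and 454 in control SCFA libraries. It had 182, 107 and 193 counts in homozygous untreated and 251, 338 and 374 in control untreated libraries, so that homozygous untreated 2 was low within its group.

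Among the other membrane and matrix genes, Tmem132e (chromosome 11, 82388900 to 82446332) had 0, 0 and 0 counts in homozygous SCFA and 80, 80 and 49 in control SCFA libraries. It had 6, 21 and 11 counts in homozygous untreated and 108, 271 and 169 in control untreated libraries. Summed over each of the other 3 groups, this gene had the fewest counts of the 10, and its homozygous untreated values rest on 38 counts in all. Col5a3 (chromosome 9, 20770050 to 20815067) had 0, 0 and 0 counts in homozygous SCFA and 535, 492 and 383 in control SCFA libraries. It had 50, 83 and 113 counts in homozygous untreated and 426, 854 and 716 in control untreated libraries. Like Tmem132e, it was highest on average in control untreated marrow. Cpm (chromosome 10, 117629500 to 117687352) had 118, 93 and 81 counts in homozygous SCFA and 2175, 2348 and 1963 in control SCFA libraries. It had 598, 599 and 597 counts in homozygous untreated and 1507, 1993 and 2066 in control untreated libraries. It kept the most counts of the 10 in homozygous SCFA marrow.

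Among the intracellular proteins, Akap12 (chromosome 10, 4266380 to 4359470) had 26, 42 and 24 counts in homozygous SCFA and 3263, 3585 and 3167 in control SCFA libraries. It had 825, 917 and 803 counts in homozygous untreated and 1951, 3063 and 2601 in control untreated libraries. It was the most abundant of the 10 per length in control SCFA libraries. Fam129c (chromosome 8, 71597648 to 71607936) had 20, 33 and 27 counts in homozygous SCFA and 1695, 1789 and 1371 in control SCFA libraries. It had 422, 532 and 451 counts in homozygous untreated and 1580, 2220 and 2005 in control untreated libraries. Its exons overlap those of Pgls on the same strand in GENCODE M21, so reads in the overlap could belong to either. How many did was not measured, and Pgls had 829, 1270 and 1078 counts in homozygous SCFA libraries. The low counts of Fam129c in those libraries, and the share left of it, carry that limit. Cecr2 (chromosome 6, 120666369 to 120771190) had 34, 36 and 27 counts in homozygous SCFA and 3044, 3244 and 2899 in control SCFA libraries. It had 706, 833 and 955 counts in homozygous untreated and 1887, 2302 and 2230 in control untreated libraries. Sertad4 (chromosome 1, 192844488 to 192855756) had 0, 0 and 0 counts in homozygous SCFA and 252, 187 and 349 in control SCFA libraries. It had 49, 58 and 66 counts in homozygous untreated and 194, 270 and 168 in control untreated libraries, so that the control groups spread widely around each other.

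**Figure D1:**
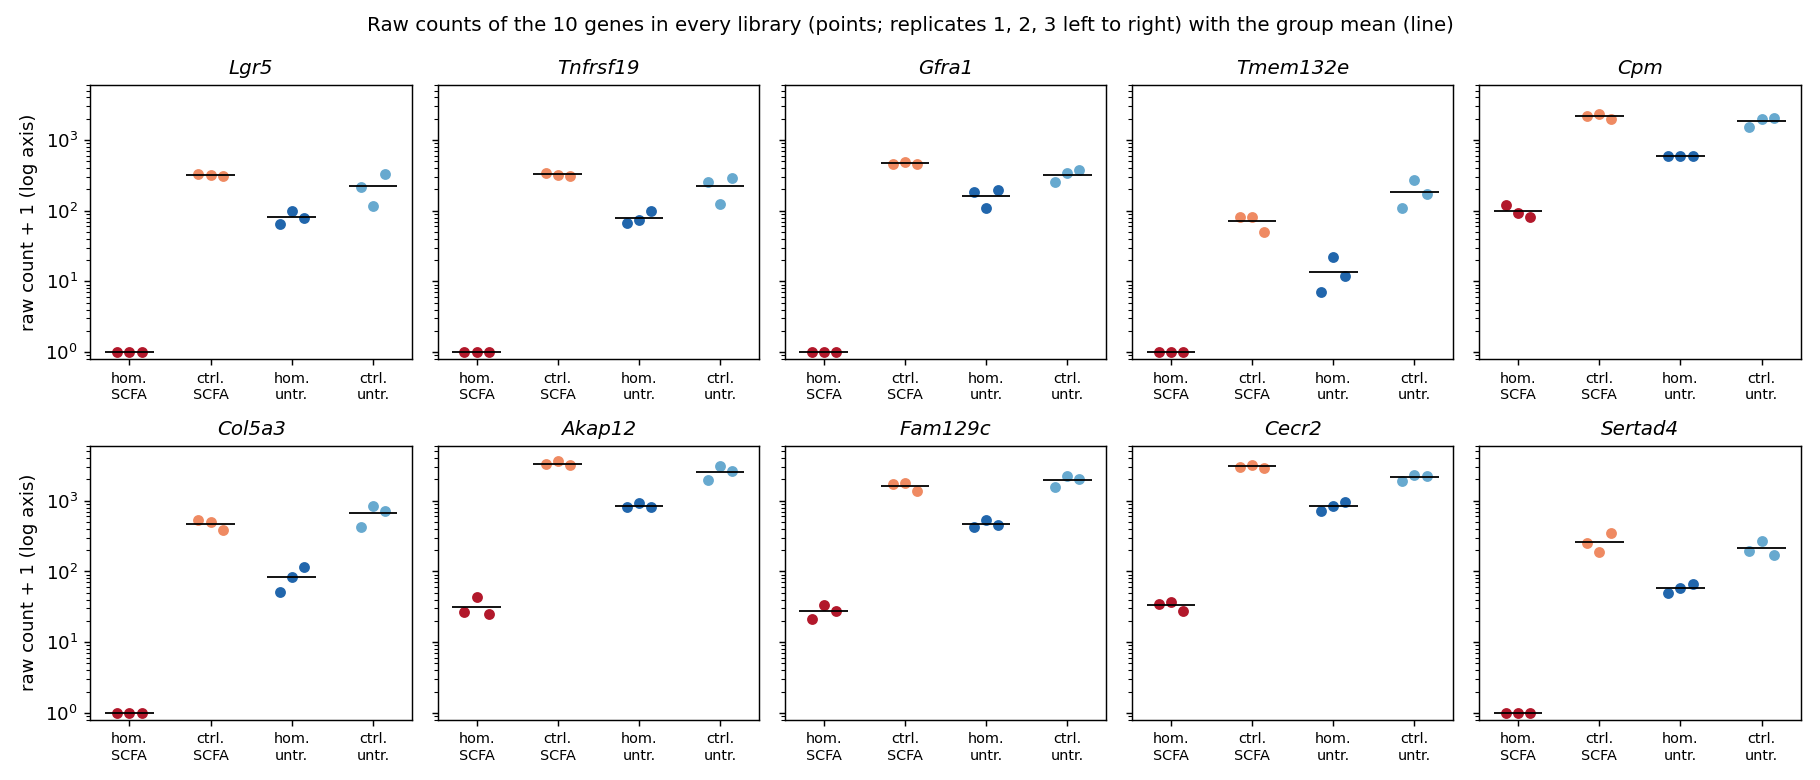
Raw count plus 1 on a log axis for each of the 10 genes, with the 3 libraries of each group as points (homozygous SCFA, control SCFA, homozygous untreated, control untreated from left to right) and the group mean as a line. All 10 genes are lowest in homozygous SCFA, next lowest in homozygous untreated, and highest in one of the control groups; 6 of them are at 0 counts in homozygous SCFA.

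The order of the groups was the same at its low end for all 10 genes. Every homozygous SCFA library lay below every homozygous untreated library, and every homozygous untreated library lay below every library of either control group. Over all 15674 genes tested, 21.3% had every homozygous SCFA library below every control SCFA library, and 15.3% had every homozygous SCFA library below every homozygous untreated library. The share was 17.9% for homozygous SCFA below control untreated, and 16.6% for homozygous untreated below control SCFA. Nothing is read from these 4 shares, because the genes were chosen on homozygous SCFA values and 5 of them on control SCFA values. At the high end, Lgr5, Tnfrsf19, Gfra1, Sertad4, Akap12, Cecr2 and Cpm had their highest mean in control SCFA, and Tmem132e, Col5a3 and Fam129c in control untreated.

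Levels between genes were compared here as CPM (counts scaled to a common total per library) per kilobase of annotated exon. In control SCFA libraries Akap12 stood at 26.5 ± 1.90, Fam129c at 23.2 ± 1.32, Cpm at 18.5 ± 0.868 and Cecr2 at 9.19 ± 0.554 CPM per kilobase (mean ± SD, n = 3). Gfra1 stood at 4.39 ± 0.336, Sertad4 at 3.57 ± 1.44, Col5a3 at 3.51 ± 0.290 and Tnfrsf19 at 3.51 ± 0.184 CPM per kilobase on the same measure. Lgr5 was lower at 1.59 ± 0.0952, and Tmem132e at 0.750 ± 0.134. The 4 genes still detected in homozygous SCFA marrow were thus the 4 with the highest level per length in control SCFA. Sertad4, Col5a3 and Tnfrsf19 did not differ from each other beyond their spread.

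The size of the drop under SCFA was described as the level in homozygous SCFA as a share of that in control SCFA, computed on pooled counts and totals. Cpm kept 4.65% (95% exact interval 4.12 to 5.23, for counting error only), Fam129c 1.70% (1.35 to 2.12), Cecr2 1.09% (0.883 to 1.33) and Akap12 0.948% (0.764 to 1.16). For the 6 genes with 0 counts, 3 counts over the group were taken as the most that the depth allows, 0.0528 CPM. On that limit at most 0.220% was left for Gfra1 and Col5a3, 0.318% for Tnfrsf19, 0.325% for Lgr5 and 0.393% for Sertad4. The limit for Tmem132e, the least abundant, was 1.48%, above the measured shares of Akap12 and Cecr2, so the depth cannot show that it fell further than those. Against homozygous untreated libraries, the level in homozygous SCFA was 17.2% (15.1 to 19.5) for Cpm, 6.02% (4.74 to 7.54) for Fam129c, 4.11% (3.32 to 5.03) for Cecr2 and 3.82% (3.07 to 4.70) for Akap12. In that comparison the genes with 0 counts were lower in homozygous SCFA by at least 152.1-fold for Gfra1 and at least 54.58-fold for Sertad4. Col5a3, Lgr5 and Tnfrsf19 lay between these bounds, at 77.61-fold, 76.35-fold and 74.46-fold. Tmem132e, with only 38 counts in the 3 homozygous untreated libraries, was at least 11.99-fold lower.

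B lineage genes, the class that the choice of members left out, were set beside these values. Their 26 listed genes summed to 614 ± 66.0 CPM in homozygous SCFA and to 4314 ± 61.7 CPM in control SCFA (mean ± SD of 3 libraries each), so that 14.2% was left. The 10 genes summed to 9.84 ± 0.790 CPM in homozygous SCFA and 619.2 ± 28.7 CPM in control SCFA libraries, or 1.59% left. Under 5% was left of 10 of the 10 genes and of 7 of the 26 B lineage genes. Ebf1, a transcription factor that specifies B cells, kept 4.82% (4.38 to 5.29), Cd79b, which carries the signal of the B cell receptor, 12.4% (11.7 to 13), and Vpreb1, part of the surrogate light chain of early B cells, 2.91% (1.68 to 4.70). Rag1, which cuts antigen receptor genes in early B cells, had 0 counts and at most 0.0916% left. Since the 10 genes were picked on these very values, their lower shares are no finding about them.

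**Figure D2:**
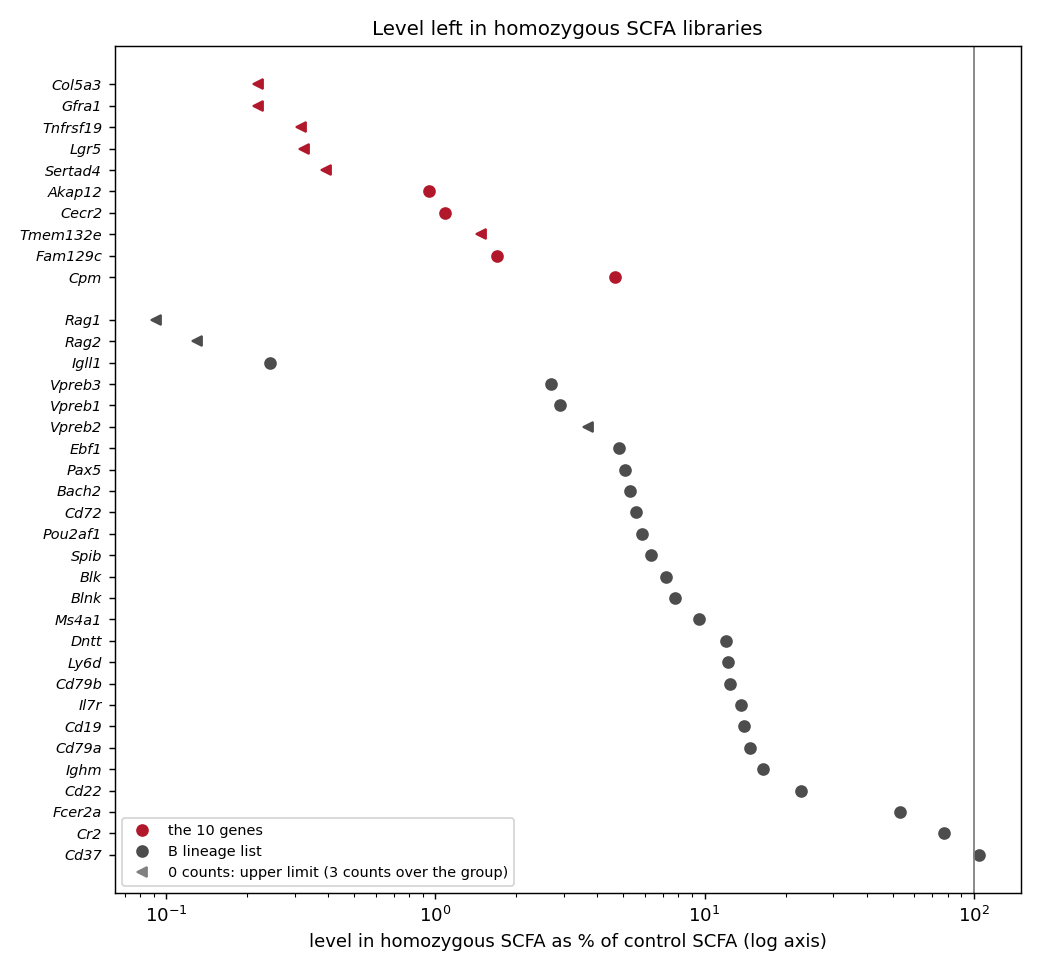
Level in homozygous SCFA libraries as a percentage of control SCFA libraries on a log axis, for the 10 genes (red) and the 26 genes of the B lineage list (grey), each a ratio of pooled CPM. Triangles are upper limits for genes with 0 counts (3 counts over the group). The 10 genes reach from a limit of 0.220% to 4.65%, with Rag1 and Rag2 of the B lineage list below their low end, Igll1 at 0.243% and Cd37 at 105%.

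The first comparison that set no homozygous SCFA library against another group was homozygous untreated against control untreated marrow. It is not an independent check, because the members were chosen with earlier results of these data known. Its p-values also draw on the homozygous SCFA libraries, since the fit took the spread of each gene from all 12 libraries. The comparison asks whether the STAT3C genotype alone went with lower levels of these genes. It did for each of the 7 genes that could be tested: Cpm, Cecr2, Akap12, Sertad4, Tnfrsf19, Lgr5 and Gfra1 fell in homozygous untreated marrow. In an edgeR fit of only the 6 libraries compared, 6 of the 7 fell, and Gfra1 did not pass (adjusted p = 0.0509). With edgeR's quasi-likelihood test at an adjusted p under 0.05, 14.8% of all genes tested were called, of which the falls made up 8.13% of all genes and the rises 6.69%. Tmem132e, Col5a3 and Fam129c were already known as large falls of this comparison, so they are described without a p. Every homozygous untreated library lay below every control untreated library for each of those 7 tested genes, against 22.9% of all genes, and the reverse order was seen for 9.18% of all genes. Their median log2 fold change was -1.52, beside -0.04 over all genes tested and -1.33 over the 26 B lineage genes. The 3 genes known beforehand, which also did not overlap between the groups, are left out of that count and median.

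Cpm averaged 29.9 ± 0.747 CPM in homozygous untreated and 105 ± 15.3 CPM in control untreated libraries (mean ± SD, n = 3), and its log2 fold change was -1.66 ± 0.14 (SE, edgeR adjusted p = 5.1e-06). Cecr2 averaged 41.5 ± 5.72 and 121 ± 13.2 CPM in homozygous untreated and control untreated libraries, at -1.40 ± 0.13 (SE, adjusted p = 1.0e-05). Akap12 averaged 42.3 ± 2.36 and 144 ± 34.0 CPM in the same groups, at -1.61 ± 0.17 (SE, adjusted p = 3.2e-05). These 3 abundant genes were left at between 31.7% and 37.9% of control, a narrow range next to that of the others. Sertad4 averaged 2.88 ± 0.389 CPM in homozygous untreated and 12 ± 3.58 CPM in control untreated libraries, at -1.91 ± 0.34 (SE, adjusted p = 0.00370). Among the receptors, Tnfrsf19 averaged 3.92 ± 0.797 CPM in homozygous untreated and 12.4 ± 4.37 CPM in control untreated libraries, at -1.52 ± 0.30 (SE, adjusted p = 0.00689). Lgr5 averaged 4.01 ± 0.775 CPM in homozygous untreated and 12.4 ± 5.35 CPM in control untreated libraries, at -1.48 ± 0.32 (SE, adjusted p = 0.0117). The call of Lgr5 was lost without homozygous untreated 1 (adjusted p = 0.0638; 5.5e-05 to 0.0638 over all 17 alternatives).

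Gfra1 had the smallest fall, with 8.05 ± 2.46 CPM in homozygous untreated and 18.1 ± 3.02 CPM in control untreated libraries, at -1.02 ± 0.24 on the log2 scale (SE, adjusted p = 0.0166). Its call was lost without homozygous untreated 2, its lowest library (log2 fold change -0.76, adjusted p = 0.0623), without control untreated 2 (adjusted p = 0.0502), without control untreated 3 (adjusted p = 0.0549), and in a fit of only the 6 libraries compared (adjusted p = 0.0509). Over its 17 alternatives the adjusted p was 0.00144 to 0.0623. The 3 genes given without a p were lower by more: Tmem132e averaged 0.626 ± 0.364 CPM in homozygous untreated and 10.4 ± 5.01 CPM in control untreated libraries, at -3.87 ± 0.49 (SE). Col5a3 averaged 4.08 ± 1.53 CPM in homozygous untreated and 37.7 ± 12.8 CPM in control untreated libraries, at -3.05 ± 0.29 (SE). Fam129c averaged 23.3 ± 2.28 CPM in homozygous untreated and 110 ± 19.7 CPM in control untreated libraries, at -2.08 ± 0.15 (SE).

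Markers of other cell types were read in the same libraries. Of the B lineage list 0 rose and 20 fell of 26 in homozygous untreated marrow; Cd79b fell by 1.66 on the log2 scale (adjusted p = 1.2e-06), Ebf1 by 1.35 (adjusted p = 5.7e-06) and Rag1 by 1.32 (adjusted p = 0.00189). Vpreb1 fell by 0.92 (adjusted p = 0.0385), a call lost in 7 of 17 alternatives, with adjusted p up to 0.167 without homozygous untreated 2. The summed B lineage level was 1565 to 1736 CPM in homozygous untreated and 4640 to 5433 CPM in control untreated libraries. The part of this in the falls of the 10 genes was not tested. Stroma, which is known to make collagens, was scarcely measured: 14 marker genes summed to 59.7 to 67.6 CPM in homozygous SCFA, 64.2 to 76.4 in control SCFA, 73.6 to 111 in homozygous untreated and 52.7 to 90.7 in control untreated libraries. Most of that sum was Vcam1, which other marrow cells also make. Lepr, Pdgfra, Col3a1 and Bglap had 0 counts in homozygous SCFA, and Lepr, Sp7 and Bglap in control SCFA libraries, where Col5a3 was at 23.9 ± 1.97 CPM. Among scarce markers, Alpl followed the members' order. It was at 0.203 ± 0.309 CPM in homozygous SCFA, 2.22 ± 0.246 in control SCFA, 1.46 ± 0.534 in homozygous untreated and 3.95 ± 1.66 in control untreated libraries. Cxcl12 did not keep that order, since it averaged 1.28 CPM in both control SCFA and homozygous untreated libraries. It averaged 0.429 CPM in homozygous SCFA and 2.40 in control untreated libraries, with overlap between groups. Of the 7 stromal markers that passed the filter, 1 rose (Vcam1) and 1 fell (Col1a1, which rests on control untreated 3) in homozygous untreated marrow, and Alpl (adjusted p = 0.205) and Cxcl12 (adjusted p = 0.634) did not pass. The summed endothelial list, 8 genes, was at 101 to 117 CPM in homozygous SCFA, 90.2 to 104 in control SCFA, 70.2 to 95.1 in homozygous untreated and 101 to 168 in control untreated libraries. Most of that sum was Vwf and Pecam1, and none of the 8 genes was at 0 in all libraries of a group. Emcn was at 0.120 ± 0.166 CPM in homozygous SCFA, 1.45 ± 0.653 in control SCFA, 1.07 ± 0.186 in homozygous untreated and 3.85 ± 1.87 in control untreated libraries, and Cdh5 averaged 0.184, 0.685, 0.595 and 1.06 CPM in the same groups. In homozygous untreated marrow 0 of the 8 rose and 2 fell, Pecam1 and Vwf, a count of falls that was 0 without control untreated 2, homozygous untreated 1 or homozygous untreated 2 and in the fit of the 6 libraries. Emcn (adjusted p = 0.0991) and Cdh5 (adjusted p = 0.619) did not pass. These 4 scarce markers were picked after their values were seen. Some other genes of both lists had higher means in homozygous SCFA than in control SCFA libraries. Vwf averaged 64.5 against 30.1 CPM and Esam 9.08 against 5.87 CPM, without overlap. Pdgfrb (2.25 against 1.06), Egfl7 (2.11 against 1.47) and Kitl (0.799 against 0.31) were also higher, with overlap. Pecam1 (27.6 against 48.3) and Kdr (6.61 against 8.39) were lower. The part of stroma and endothelium in the members' levels was not tested. The 9 T cell markers, the lineage that CD4Cre targets, summed to 34.6 to 38.4 CPM in homozygous SCFA and 42.6 to 49.6 in control SCFA libraries. They summed to 43.8 to 46.9 CPM in homozygous untreated and 64.6 to 77.7 in control untreated libraries. Among 8 of them tested without SCFA there were 0 rises and 1 fall (0 falls without homozygous untreated 1).

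The second comparison that set no homozygous SCFA library against another group was control SCFA against control untreated marrow. SCFA and the date of the libraries cannot be told apart in it, and its p-values also rest on the spread over all 12 libraries. Of the 5 members that could be tested, Cecr2 rose and Tmem132e fell, while Akap12, Cpm and Fam129c did not pass the test. In a fit of only the 6 libraries compared, 1 of the 5 rose and 1 fell as well. An earlier look at these data had picked by their control SCFA values the genes Col5a3, Gfra1, Tnfrsf19, Lgr5 and Sertad4. These are described without a p, and their presence in control SCFA libraries is no finding. Of all genes 21.9% were called, 8.89% as rises and 13.0% as falls. Among the 5 tested genes, every control SCFA library lay above every control untreated library for 1 (Cecr2; 13.9% of all genes) and below for 2 (Fam129c and Tmem132e; 23.3% of all genes). The median log2 fold change of these 5 was 0.19, beside 0.04 over all genes tested. Both comparisons use the same control untreated libraries, so their values are set side by side and not related to each other.

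Cecr2 averaged 157 ± 9.45 CPM in control SCFA and 121 ± 13.2 CPM in control untreated libraries, at 0.48 ± 0.12 on the log2 scale (SE, adjusted p = 0.0163). Its call was lost without control untreated 3 (adjusted p = 0.0743) and without control SCFA 3 (adjusted p = 0.0737), in a range of 0.00105 to 0.0743 over 17 alternatives. Tmem132e averaged 3.52 ± 0.630 CPM in control SCFA and 10.4 ± 5.01 CPM in control untreated libraries, at -1.44 ± 0.43 (SE, adjusted p = 0.0333). That call was lost without control untreated 2 (adjusted p = 0.181), its highest library, without control untreated 3 (0.0602) and without control SCFA 1, 2 or 3 (0.0738, 0.0817 and 0.132), in a range of 0.0107 to 0.181. Akap12 was at 0.36 ± 0.16 (SE, adjusted p = 0.114) and Cpm at 0.19 ± 0.14 (SE, adjusted p = 0.340). Fam129c was at -0.30 ± 0.15 (SE, adjusted p = 0.156; 0.0398 without control untreated 1, and 0.0398 to 0.422 over 17 alternatives).

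Among the genes given without a p, Gfra1 averaged 24.0 ± 1.84 CPM in control SCFA and 18.1 ± 3.02 CPM in control untreated libraries, at 0.52 ± 0.23 (SE), with no overlap. Lgr5 averaged 16.3 ± 0.977 and 12.4 ± 5.35 CPM, and Tnfrsf19 16.6 ± 0.873 and 12.4 ± 4.37 CPM, in control SCFA and control untreated libraries. Their log2 fold changes of 0.50 ± 0.31 and 0.52 ± 0.28 (SE) came to 0.17 and 0.21 without control untreated 2. Sertad4 averaged 13.7 ± 5.55 and 12 ± 3.58 CPM, and Col5a3 23.9 ± 1.97 and 37.7 ± 12.8 CPM, in control SCFA and control untreated libraries. Both overlapped between the groups, at 0.31 ± 0.32 and -0.54 ± 0.26 (SE), and Sertad4 came to -0.06 without control SCFA 3.

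**Figure D3:**
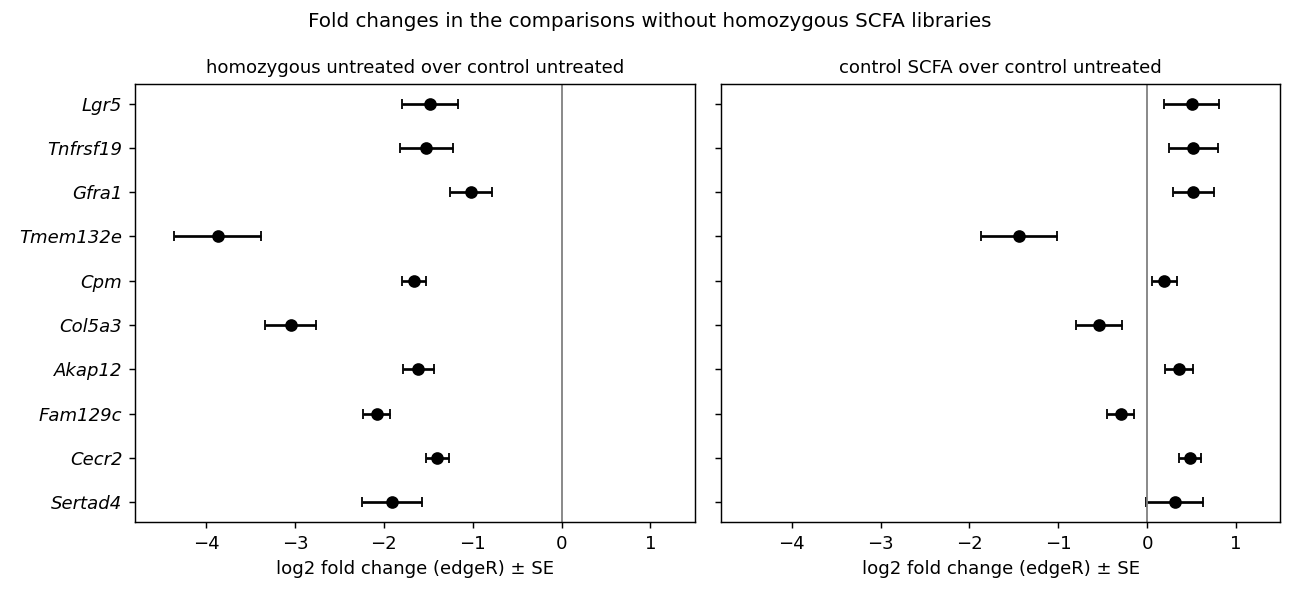
Log2 fold change with its standard error for each of the 10 genes, from the fit of all 12 libraries. In the left panel, homozygous untreated over control untreated, the 10 genes lie between -3.87 and -1.02; in the right panel, control SCFA over control untreated, 9 of them lie between -0.54 and 0.52 and Tmem132e at -1.44.

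The control untreated libraries showed how the members vary among themselves. Control untreated 2 was the highest of its group for 8 of the 10 genes and the lowest for the other 2, Lgr5 and Tnfrsf19. Lgr5 had 12.6, 6.90 and 17.6 CPM in control untreated 1, 2 and 3, and Tnfrsf19 14.6, 7.37 and 15.3 CPM. In the same order Col5a3 had 24.8, 50.4 and 37.8 CPM and Tmem132e 6.29, 16.0 and 8.93 CPM. Ebf1, at 122, 133 and 129 CPM, and Rag1, at 44.9, 48.8 and 38.6 CPM, showed no dip in control untreated 2. Lgr5 and Tnfrsf19 therefore moved together and apart from the rest in that library, which is a description of 3 libraries and has no test. In control SCFA libraries the spread was small for both, with SDs of 6% and 5.25% of the mean.

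**Figure D4:**
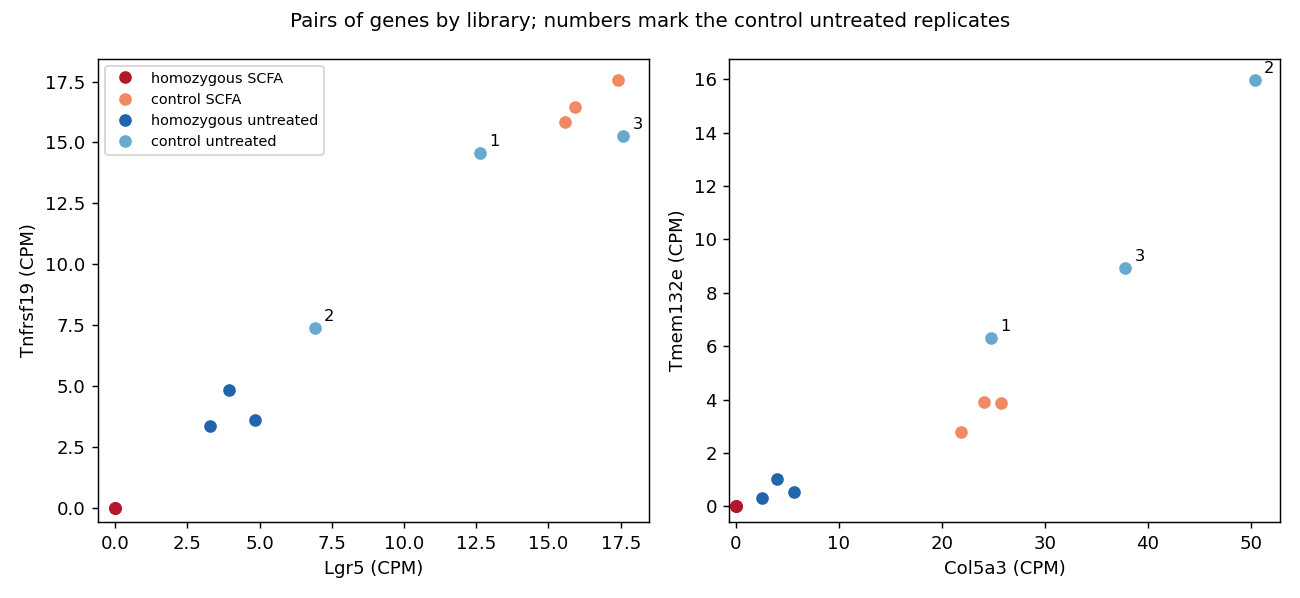
Level in CPM of Tnfrsf19 against Lgr5 (left) and of Tmem132e against Col5a3 (right), 1 point per library, coloured by group, with the control untreated replicates numbered. Control untreated 2 lies low on the left, at 6.90 and 7.37 CPM, and at the top on the right, at 50.4 and 16.0 CPM; the homozygous SCFA points all lie at 0.

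The partners and relatives of each protein were then counted from fixed lists, without the members themselves. For Gfra1, the ligand gene Gdnf had at most 2 counts in any library, while the signalling partner Ret was measured in all groups. Ret had 0, 5 and 23 counts in homozygous SCFA and 95, 149 and 93 in control SCFA libraries. It had 23, 9 and 8 counts in homozygous untreated and 109, 157 and 46 in control untreated libraries. The groups of the 2 genotypes did not overlap, and Ret fell in homozygous untreated marrow, at -2.99 ± 0.81 on the log2 scale (SE, adjusted p = 0.0259). The call of Ret was lost without control untreated 2 (adjusted p = 0.0925), homozygous untreated 2 (0.111) and homozygous untreated 3 (0.0688), with 3 of 17 alternatives not past the test. It was the only one of 4 tested genes of the GDNF family list to pass there. Under SCFA in control mice 0 rose and 1 fell of the 4, the ligand gene Nrtn, at -1.67 (adjusted p = 0.00702). The related receptor gene Gfra2 had 0 counts in homozygous SCFA and 8, 12 and 16 counts in control SCFA libraries, and Gfra3 had 0 counts in all libraries.

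For Lgr5, most of the R-spondin genes that encode its ligands were at or near 0: Rspo4 had 0 counts in all libraries, and Rspo2 and Rspo3 at most 2 and 6. Rspo1 was low but measured, with at most 48 counts in any library. It was at 1.62 ± 0.941 CPM in homozygous SCFA and 0.599 ± 0.525 CPM in control SCFA libraries. The related receptor Lgr4 was at 3.35 ± 0.670 CPM in homozygous SCFA and 2.45 ± 1.43 CPM in control SCFA libraries, and Lgr6 had at most 4 counts. Of 21 tested genes of the R-spondin and Wnt list, 0 rose and 3 fell in homozygous untreated marrow, at a median of -0.20 (-0.04 over all genes). Lef1, a transcription factor of the Wnt pathway that early B cells also express, fell by 1.13 (adjusted p = 0.00107), with 0 of 17 alternatives losing the call. Tcf7 and Axin1 fell by 0.60 (adjusted p = 0.0332) and 0.69 (adjusted p = 0.0408), but lost the call in 11 and 10 of 17 alternatives, with adjusted p up to 0.108 and 0.170, both of them without control untreated 2, control untreated 3 and each homozygous untreated library among others. Axin2, a common target of Wnt signalling, had at most 17 counts in any library. Under SCFA in control mice 2 of the 21 rose and 2 fell, counts that ranged from 0 to 4 each way over the alternatives. They were 0 and 0 without control SCFA 3, 1 and 0 without control untreated 2, control untreated 3 or control SCFA 1, and 4 and 4 without control untreated 1.

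For Tnfrsf19, 19 other genes of the TNF receptor family were tested without SCFA, of which 3 rose and 2 fell in homozygous untreated marrow. Tnfrsf13c, the receptor of the B cell survival factor BAFF, fell by 1.81 (adjusted p = 2.7e-06), and Tnfrsf11a, the RANK receptor of osteoclast precursors, rose by 1.00 (adjusted p = 0.00496). Eda2r, the receptor of ectodysplasin A2, rose, at 29.2 ± 6.57 CPM in homozygous untreated and 2.22 ± 2.65 CPM in control untreated libraries (log2 fold change 3.85, adjusted p = 0.0100). It stood at 14.3 ± 1.18 CPM in homozygous SCFA and 0.720 ± 1.20 CPM in control SCFA libraries, while Tnfrsf19 had 0 counts in homozygous SCFA. The other 2 calls, a fall of 0.75 for Relt (adjusted p = 0.0230) and a rise of 0.52 for Fas (adjusted p = 0.0303), were lost in 5 and 6 of 17 alternatives, with adjusted p up to 0.0981 and 0.142, both highest without control untreated 2. Under SCFA in control mice 1 of the 19 rose, Tnfrsf11a by 1.15 (adjusted p = 0.00431), and 3 fell. The falls were 1 without control SCFA 3, 2 without control untreated 2 or 3 and 6 without control untreated 1, which also gave 3 rises.

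For Col5a3, 5 other fibrillar collagen genes passed the filter, of which 0 rose and 1 fell in homozygous untreated marrow. That was Col1a1, at -2.90 (adjusted p = 0.0403), whose value rests on control untreated 3: it had 372 counts there, against 20 and 29 in the other libraries of the group, and without it the log2 fold change was -0.56 (adjusted p = 0.637). Col1a1 was at 0.986 ± 0.163 CPM in homozygous SCFA and 0.998 ± 0.364 CPM in control SCFA libraries. The other chains of type V collagen, Col5a1 and Col5a2, had at most 30 and 23 counts in any library.

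For Cecr2, the ATPase gene Smarca1, a known partner, had at most 10 counts in any library, while Smarca5, the other ISWI ATPase, was at 295 ± 48.8 CPM in homozygous SCFA and 353 ± 15 CPM in control SCFA libraries. Which ATPase the Cecr2 protein joins in these cells was not measured. Of 11 tested genes of the ISWI list, 2 rose and 0 fell in homozygous untreated marrow. These were Baz1a (0.54, adjusted p = 0.0442) and Rbbp7 (0.45, adjusted p = 0.0487), which lost the call in 13 and 11 of 17 alternatives, with adjusted p up to 0.190 and 0.213, both of them highest without control untreated 2. Of 9 other A-kinase anchoring protein genes, 0 rose and 1 fell without SCFA, Akap8l at -0.80 (adjusted p = 0.0292; lost in 6 of 17, up to 0.134 without control untreated 2). Under SCFA in control mice 5 of the 9 rose and 1 fell, a count of rises that ranged from 0 to 5 over the alternatives. Akap11 rose by 1.00 (adjusted p = 0.0172), but not without control untreated 2 or 3 or control SCFA 2 or 3 (0.0544 to 0.0788).

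In the other families edgeR's test on all 12 libraries called 0 falls without SCFA. The 2 relatives of Fam129c tested did not pass there: Fam129a was at 0.11 (adjusted p = 0.507) and Fam129b at -0.57 (adjusted p = 0.0837). Both were well measured in homozygous SCFA marrow, at 213 ± 9.37 and 55.2 ± 10.6 CPM, against 157 ± 1.79 and 26.1 ± 4.72 CPM in control SCFA libraries. DESeq2 called 0 falls in the family of Fam129c there, and 1 fall was called with no filter on low counts and 1 without control untreated 1. Of 4 relatives of Sertad4, 0 passed edgeR's test without SCFA, while 2 fell with DESeq2, 2 without control untreated 1, 1 without homozygous untreated 3 and 1 with no filter on low counts. Under SCFA in control mice 0 of the 4 rose and 3 fell, with 1 fall left without control untreated 2, control SCFA 2 or control SCFA 3. Sertad3 fell by 0.88 there (adjusted p = 0.00485), and Sertad1 by 0.95 (adjusted p = 0.0124; 0.0530, 0.0519 and 0.0532 without control untreated 2, control SCFA 2 and control SCFA 3). Of 5 other carboxypeptidase genes tested, 2 rose and 0 fell without SCFA (1 rose without control untreated 2 or 3 or any homozygous untreated library), among them the mast cell gene Cpa3 at 1.21 (adjusted p = 0.00781). Tmem132a, the only relative of Tmem132e that passed the filter, was at -0.03 (adjusted p = 0.971).

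A fixed cutoff, narrower than the description that chose the members, was also applied to the whole table. In each of the other 3 groups 12078 genes averaged 1 CPM or more, and 16 of these had at most 3 counts over the 3 homozygous SCFA libraries, and 12 had 0. There were 5 members among them, namely Col5a3, Gfra1, Tnfrsf19, Lgr5 and Sertad4, beside 3 genes of the B lineage list, Rag1, Rag2 and Igll1. Tmem132e missed the list because its mean was 0.626 CPM in homozygous untreated libraries, and the 4 other members because they kept 80 to 292 counts. The remaining 8 were Gpr12, Uchl1, Krt222, Rbm24, Slc5a5, F9 and 2 unnamed gene models. Gpr12 and Uchl1 were picked for description after their values were seen. Gpr12, an orphan G protein-coupled receptor, had 0 counts in homozygous SCFA and 142, 125 and 85 counts in control SCFA libraries. It had 18, 43 and 41 counts in homozygous untreated and 92, 94 and 128 in control untreated libraries, the same order of groups as the members. Uchl1, a ubiquitin hydrolase best known from neurons, had 1, 0 and 0 counts in homozygous SCFA and 72, 91 and 71 counts in control SCFA libraries, and 15, 21 and 32 counts in homozygous untreated and 116, 103 and 122 in control untreated libraries.

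Genes with the most similar pattern were sought over the 9 libraries outside homozygous SCFA, by Pearson's r between a gene's log2 CPM and the mean of the 10 members. Unnamed gene models and antigen receptor segments were left out, as were genes that did not pass the filter on low counts. The 9 libraries form 3 groups, and such an r mostly reflects the group means, so no p is given. They include control SCFA libraries, by whose values some members had been picked. Highest were Tgfbr2, a TGF-beta receptor (r = 0.994), Tnfrsf13c (0.993), the lymphoid transcription factor gene Ikzf3 (0.990), Tmem108 (0.986) and Fam169b (0.984). The members themselves, each against the mean of the other 9, ranged from 0.869 for Lgr5 to 0.991 for Cpm. In the homozygous SCFA libraries, which that measure did not use, none of these 5 genes was at 0. Tgfbr2 was at 103 ± 9.85 CPM in homozygous SCFA and 147 ± 2.04 CPM in control SCFA libraries, and Ikzf3 at 8.10 ± 1.53 and 39.4 ± 0.95 CPM. Tnfrsf13c was at 7.88 ± 0.173 CPM in homozygous SCFA and 66.2 ± 2.98 CPM in control SCFA libraries, Tmem108 at 0.864 ± 0.341 and 9.90 ± 1.34 CPM, and Fam169b at 6.69 ± 1.12 and 20.5 ± 1.47 CPM.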

How the data were processed

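The authors deposited raw counts, 1 row per gene symbol, without normalization. The submitters' processing notes name STAR, featureCounts and the mm10 build; the tool versions, the gene annotation and whether counting used strand were not given in the sources used here. Poly(A) libraries came from a Clontech low-input protocol, per the labels' protocols. The members, lists and rules were chosen with earlier results of these data known.

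From these counts, CPM were computed on total counts. Exon lengths and mm10 positions came from GENCODE M21, which holds 96.4% of the symbols. All 12 libraries entered 1 edgeR 4.0.16 quasi-likelihood fit (R 4.3.3, TMM factors, filterByExpr by group, 4 group means), with Benjamini-Hochberg adjustment over 15674 genes and a threshold of 0.05. Tested on simulated counts for the comparison without SCFA, it called 54 of 100 true 2-fold changes, 90 of 100 true 4-fold changes, and 11 false ones among 155 calls. DESeq2 1.42.0 was 1 alternative. For a group with 0 counts, 3 counts over the group were used as the limit. Intervals are exact at 95% and, like the limits, cover counting error only. Members are all described. Other genes named are called list members, in order of p, at most 4 per list, of which only some are given. The TNF receptor family is an exception, with every gene called without SCFA named. Markers, partners or relatives were also named after their values were seen. Python 3.11.15 drew the figures.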

Additional observations from a re-analysis of the deposited data

How the results depend on the processing

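The 7 members tested without SCFA all fell with RLE factors, with no filter on low counts, with DESeq2 and with the replicate block; 6 or 7 of them did in each of the 17 alternatives, the exceptions being Gfra1 (4) and Lgr5 (1), and none changed direction. The B lineage list had 17 to 24 falls. Over all genes, 2323 were called without SCFA, against 914 in a fit of the 6 libraries compared, and 770 to 4333 with 1 library left out: leaving out control untreated 1, 2 or 3 gave 4333, 883 or 1109, and leaving out homozygous untreated 1 or 2 gave 888 or 770. For SCFA in control mice 3432 were called, against 2035 in a fit of the 6 libraries compared, and 613 to 5090 with 1 library left out: leaving out control untreated 2 or 3 gave 1292 or 1935, and leaving out control SCFA 2 or 3 gave 1697 or 613. The cause was not tested. With the replicate number as a block, 2067 and 3249 genes were called. Same-numbered libraries correlated at -0.369 to 0.135 in their deviations from the group means. With so few libraries per group, these values cannot settle whether the numbers pair libraries. Of the members tested under SCFA in control mice, 0 to 1 rose and 0 to 2 fell, against 1 and 1. Limits for genes with 0 counts rest on the group total: for Gfra1 the limit on the log2 ratio of homozygous SCFA to control SCFA was -8.83, and -8.28 to -8.21 with 1 homozygous SCFA library left out. At this depth a gene under about 0.0528 CPM in that group cannot be told from absent.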
